A study of Mus musculus with 2 samples.

Results

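The forkhead factors were followed in cultured mouse embryonic ureters exposed to NOGGIN. They are the transcription factors whose gene symbols consist of Fox, a subclass letter from a to s and a number. Array probes were matched to symbols through their accessions, and 44 forkhead genes with 56 probes were found among the 32103 genes on the array. Of these 44 genes, 32 were bright enough to be tested, among 21316 genes tested in all. NOGGIN is an extracellular antagonist that captures bone morphogenetic proteins (BMPs) before they reach a receptor. Whole ureters of wildtype NMRI mouse embryos of mixed sex were explanted at E12.5 (embryonic day) and kept on transwell membranes for 18 h, with 10 µg/ml NOGGIN in the treated group and none in the control group. The data are 2 Agilent microarrays, called replicates 1 and 2. Each was hybridised with control RNA and NOGGIN RNA in different dyes, which were exchanged on the second array. Below, a culture means the RNA sample of 1 channel.

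Forkhead factors bind DNA through a winged-helix domain, and several of them can open closed chromatin. In the early ureter, Sonic hedgehog from the epithelium acts on the surrounding mesenchyme, where FOXF factors are among its known effectors and BMP4 drives smooth muscle differentiation. FOXD1 marks the stromal progenitors of the neighbouring kidney, FOXC1 takes part in positioning the ureteric bud, and FOXA1 belongs to the epithelium of the urinary tract. FOXM1, FOXO and FOXJ1 are known for general programmes, namely mitosis, the response to insulin and growth factors, and motile cilia.

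The values below are log2 ratios of the NOGGIN-labelled over the control-labelled channel, as the dyes in the labels give them, with mean ± SD over the arrays (n = 2). The authors' deposited table of signed fold changes has the opposite sign for 9 of the 9 forkhead genes that passed the test, on both arrays, and for 27 and 32 of the 32 tested on replicates 1 and 2. Its Foxp1 values are 1.81 on replicate 1 and 1.72 on replicate 2, where the label-oriented log2 ratios are -0.83 and -0.82, and its Foxq1 values are -1.71 and -2.15, where they are 0.73 and 1.13. Across 25586 probes the correlation between the log2 value in that table and the label-oriented ratio of the same array was -0.965 on both arrays. Which of the directions is right is not known, so a gene is called higher or lower by the channel that the labels assign to NOGGIN. With the sign of the deposited table every such call would be exchanged, at the same size and p-value. Both columns of that table have a median of 1, and the sources used here do not state how its values were normalised.

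The scanner software rated 67.3% to 74.3% of gene spots per channel as well above background, and 0 as saturated. There were only 2 arrays, which limits the precision. The labels do not tell whether the replicates are separate cultures or litters, or how many embryos were pooled. The p-values therefore measure the spread between these samples, which may be technical. Since RNA came from whole ureters, fewer cells of a type and less RNA per cell cannot be told apart. Markers of the labelled tissue were present, with 15 of 15 epithelial and 13 of 13 mesenchymal markers bright enough to be tested. The same held for 14 of 14 markers of renal stroma and 12 of 12 of the nephron and its progenitors, tissues that adjoin the ureter.

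Among the 32 forkhead genes tested, 9 differed between the channels (adjusted p under 0.05, limma with Benjamini-Hochberg adjustment over all genes tested), beside a background of 7.99% of all genes. Foxq1, Foxa1, Foxl1 and Foxo6 were higher, which makes 4 genes beside a background of 3.95%. Foxd2, Foxp1, Foxd1, Foxs1 and Foxd3 were lower, which makes 5 genes beside a background of 4.04%. The other 23 did not pass the test. With 1 residual degree of freedom per gene, the true share of false calls may exceed the nominal threshold, as it did in simulated data, so calls near 0.05 are the least secure. By a second criterion with no model, a difference of 1.5-fold or more on each array with 1 sign, 5 members qualified, beside 2.90% of all genes. They were Foxq1 in the higher direction (1.35% of all genes) and Foxs1, Foxd1, Foxp1 and Foxd2 in the lower one (1.55%). None of the 32 was past 1.5-fold on both arrays in opposite directions, as 0.0375% of all genes were. The family did not move as a block. Its median log2 ratio was -0.073, beside 0.00084 for all genes tested, and 65.6% of the members had the same sign on both arrays, beside 66.7% of all genes. Of the 32 genes, 31 were well above background in all 4 channels, so their place among the genes tested did not rest on 1 condition. With the arrays centred on their median in place of loess normalisation, 0 of the 9 calls held by limma, and 0 of all genes were called, while 12 members and 3568 genes had an unadjusted p under 0.05. The count of members past 1.5-fold on both arrays was 5 under that centring as well.

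**Figure D1:**
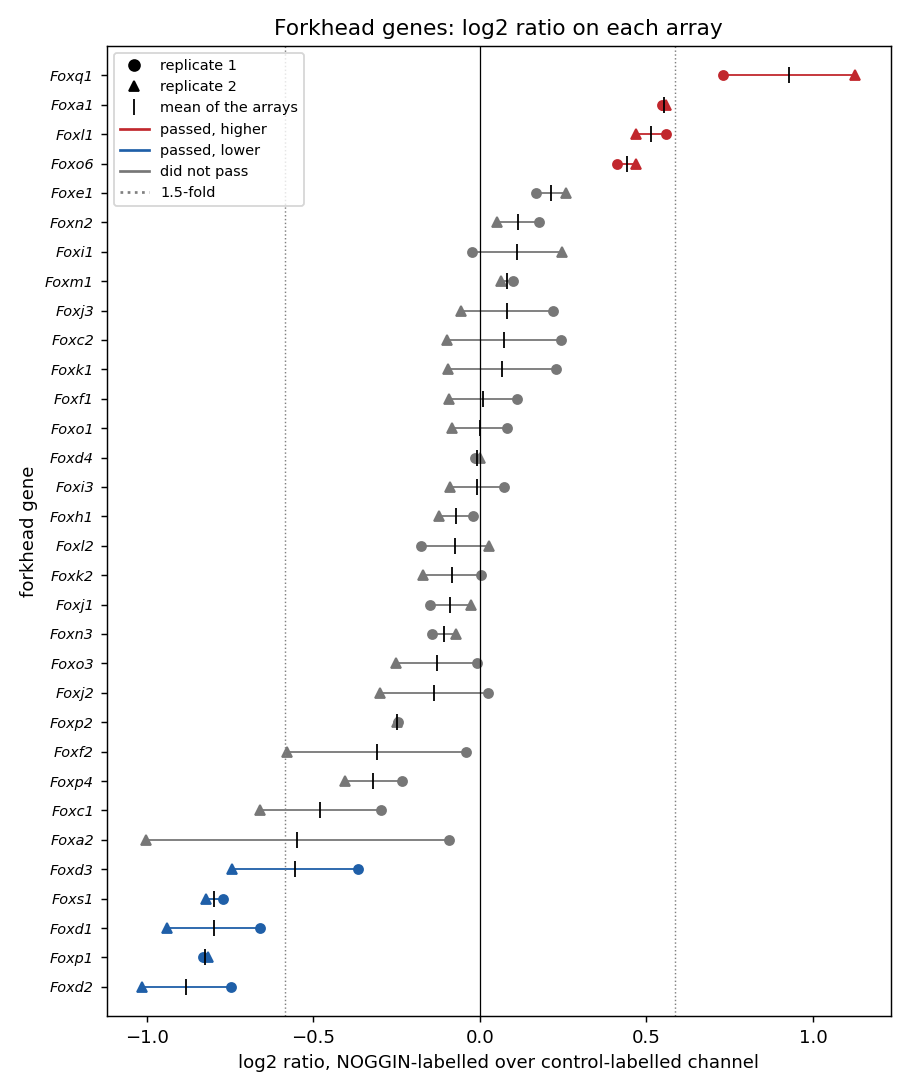
Log2 ratio (NOGGIN-labelled over control-labelled channel, horizontal axis) of each of the 32 forkhead genes tested (vertical axis), with a circle for replicate 1, a triangle for replicate 2 and a tick for their mean. The 4 genes that passed as higher and the 5 that passed as lower are coloured, the dotted lines mark 1.5-fold, and the wide spans of Foxa2 and Foxf2 show where the arrays disagreed.

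**Figure D2:**
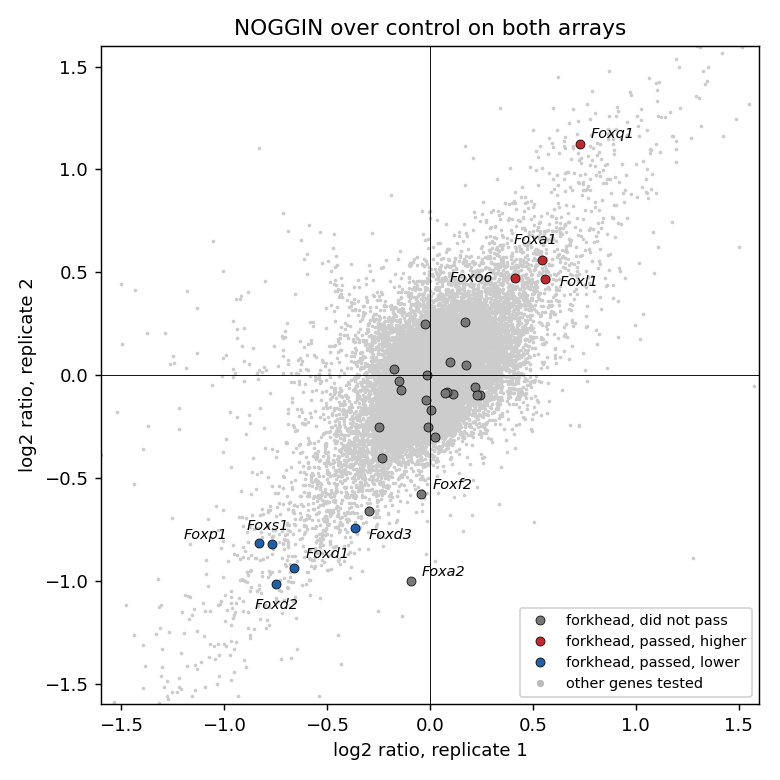
Log2 ratio on replicate 2 (vertical axis) against that on replicate 1 (horizontal axis), with forkhead genes as large points over the other genes tested in grey. Genes beyond the axis limits are not drawn. The 9 forkhead genes that passed lie along the diagonal, 4 at the upper right and 5 at the lower left. The test favours genes with like ratios on both arrays, so their place is no separate sign of agreement.

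The FOXD genes, known for stromal and neural crest progenitors, were the subclass with most calls. Of their 4 members, 3 were lower, beside 4.04% of all genes tested. Their proximal promoters are shown because these 3 genes differed in the same direction. Each line holds the 250 bases before the start of the gene, 5′ to 3′ on the strand of the gene (RefSeq, GRCm38.p6), and capitals would mark a motif match.
Foxd1, chr13:98353995-98354244, plus strand: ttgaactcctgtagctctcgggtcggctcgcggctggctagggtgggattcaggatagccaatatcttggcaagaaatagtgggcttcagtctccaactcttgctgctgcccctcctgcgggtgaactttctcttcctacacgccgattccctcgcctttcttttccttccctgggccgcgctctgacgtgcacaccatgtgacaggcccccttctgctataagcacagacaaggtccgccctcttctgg
Foxd2, chr4:114908899-114909148, minus strand: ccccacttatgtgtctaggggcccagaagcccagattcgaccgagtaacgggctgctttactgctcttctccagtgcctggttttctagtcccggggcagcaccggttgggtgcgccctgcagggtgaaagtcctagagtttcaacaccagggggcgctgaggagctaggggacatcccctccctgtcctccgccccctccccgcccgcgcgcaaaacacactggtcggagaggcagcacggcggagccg
Foxd3, chr4:99656049-99656298, plus strand: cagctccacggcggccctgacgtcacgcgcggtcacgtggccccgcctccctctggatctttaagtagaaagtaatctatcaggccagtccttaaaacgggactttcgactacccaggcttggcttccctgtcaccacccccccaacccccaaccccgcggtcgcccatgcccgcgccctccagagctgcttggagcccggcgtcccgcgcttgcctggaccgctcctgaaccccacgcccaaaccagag
Searched on both strands were a forkhead motif (TGTTTAC), a GLI motif (GACCACCCA), a GC-rich BMP-SMAD motif (TGGCGCC) and a SMAD palindrome (GTCTAGAC), none of which contains another. Only these exact letters were searched, and none of them occurred in the FOXD windows. Among 32851 promoter windows of that length they occurred in 3.17%, 0.225%, 3.22% and 0.167%. The GC content was 57.2% for Foxd1, 64.4% for Foxd2 and 65.6% for Foxd3, beside a median of 52.4% over all promoter windows with quartiles of 45.2% and 61.2%.

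Foxd1, a marker of renal stromal progenitors, gave normalised signals of 25700 in the control and 16278 in the NOGGIN culture of replicate 1, and of 30944 and 16128 in replicate 2. Both NOGGIN signals lay below both control signals and the conditions did not overlap. The log2 ratios were -0.66 and -0.94, with a mean of -0.80 ± 0.20 or a 1.74-fold difference (adjusted p = 0.0136, limma). Foxd2, which is expressed in kidney mesenchyme, gave signals of 12734 in the control and 7581 in the NOGGIN culture of replicate 1, and of 13608 and 6741 in replicate 2. The NOGGIN cultures were again the low ones on both arrays, without overlap. Its log2 ratios were -0.75 and -1.01, with a mean of -0.88 ± 0.19 or a 1.84-fold difference (adjusted p = 0.0102, limma), the lowest mean in the family.

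Foxd3, a regulator of early neural crest cells, had a dim probe with signals of 366 and 284 in the control and NOGGIN culture of replicate 1, and of 355 and 212 in replicate 2. Both NOGGIN signals were below both controls, and the difference was wider on replicate 2. On the log2 scale the ratios were -0.37 and -0.74, with a mean of -0.56 ± 0.27 (adjusted p = 0.0478, limma). This call lay close to the threshold and was lost with 4 other settings besides median centring, at adjusted p-values between 0.0513 and 0.0871. Foxd4 gave signals between 147 and 153 in the 4 cultures, which overlapped, and a mean log2 ratio of -0.0072 ± 0.012 (adjusted p = 0.973, limma). Its sign turned to positive with median centring (0.0088) and in the deposited table after orientation by the dyes (0.15).

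Markers of renal stroma are the setting in which FOXD1 is best known, and they were counted beside the FOXD genes. Of 14 such markers tested, 4 were lower and 1 was higher, beside 4.04% and 3.95% of all genes, with a median of -0.22. Fibin, a secreted protein, had a mean log2 ratio of -1.37 ± 0.23, Ntn1, a guidance cue, -1.22 ± 0.21, and Smoc2, a matrix protein, -1.17 ± 0.27 (adjusted p = 0.00505, 0.0059 and 0.00821, limma). The summed signal of the 14 markers was 667920 and 715650 in the control cultures and 652850 and 594420 in the NOGGIN cultures, and none of the 14 was below background. Such a sum, here and for the other lists, follows its brightest probes, so it does not measure the amount of a tissue. Of 11 markers of neural crest cells and neurons tested, 1 was lower and 1 was higher, beside 4.04% and 3.95% of all genes. Their median was 0.039. Stmn2, a neuronal microtubule regulator, had a log2 ratio of 0.70 ± 0.093, and Dbh, an enzyme of noradrenaline synthesis, -0.42 ± 0.11 (adjusted p = 0.0113 and 0.0437, limma). The Dbh call was lost with 4 settings besides median centring, at adjusted p-values between 0.0504 and 0.103. The summed signal of this list was 117210 and 117470 in control and 139740 and 119990 in NOGGIN cultures. The part of stromal or neural cells in the FOXD values was not tested.

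The FOXC genes, regulators of the mesoderm around kidney, vessels and eye, did not pass the test. Foxc1 gave signals of 13269 in the control and 10794 in the NOGGIN culture of replicate 1, and of 15770 and 9976 in replicate 2. The NOGGIN cultures were lower on both arrays without overlap, but by unequal amounts. This gave log2 ratios of -0.30 and -0.66, with a mean of -0.48 ± 0.26 (adjusted p = 0.0657, limma). It passed with no background correction (adjusted p = 0.0477) and with robust, trended moderation (adjusted p = 0.0402). Foxc2, needed for lymphatic vessels and valves, gave signals of 39500 and 46780 in the control and NOGGIN culture of replicate 1, and of 42104 and 39336 in replicate 2. The NOGGIN signal was the highest of the 4 on the first array and the lowest on the second, so the conditions overlapped. Its mean log2 ratio was 0.073 ± 0.24 (adjusted p = 0.748, limma), and it turned to -0.022 with median centring.

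Foxf1, Foxf2 and Foxl1 are known from mesenchyme that receives hedgehog signals. Among the FOXF and FOXL genes, 1 of 4 passed, beside 7.99% of all genes. That was Foxl1, a factor of the mesenchyme beneath gut epithelium, with signals of 8163 in the control and 12036 in the NOGGIN culture of replicate 1, and of 7982 and 11045 in replicate 2. Both NOGGIN cultures were higher than both controls. The log2 ratios came to 0.56 and 0.47, with a mean of 0.51 ± 0.065 or a 1.43-fold difference (adjusted p = 0.0222, limma).

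Foxf1, an effector of hedgehog signals in visceral mesenchyme, gave signals of 10883 and 11753 in the control and NOGGIN culture of replicate 1, and of 12997 and 12182 in replicate 2. The order of the conditions turned between the arrays. Its mean log2 ratio was 0.0087 ± 0.14 (adjusted p = 0.972, limma). A second, dimmer Foxf1 probe had a log2 ratio of -0.13 ± 0.029, and the sign of the gene turned to negative with the mean of both probes (-0.060) and with median centring (-0.057). Foxf2, its close relative, gave 3240.4 and 3148 on replicate 1 and 3461 and 2318 on replicate 2, in control and NOGGIN cultures. Its NOGGIN signals were the lower on both arrays, though on replicate 1 hardly so. The log2 ratios were -0.042 and -0.58, with a mean of -0.31 ± 0.38 (adjusted p = 0.266, limma). Foxl2, known from the ovary and the eyelid, gave 6266 and 5543 on replicate 1 and 6456 and 6581 on replicate 2, with a mean log2 ratio of -0.075 ± 0.14 (adjusted p = 0.674, limma). Its conditions overlapped.

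**Figure D3:**
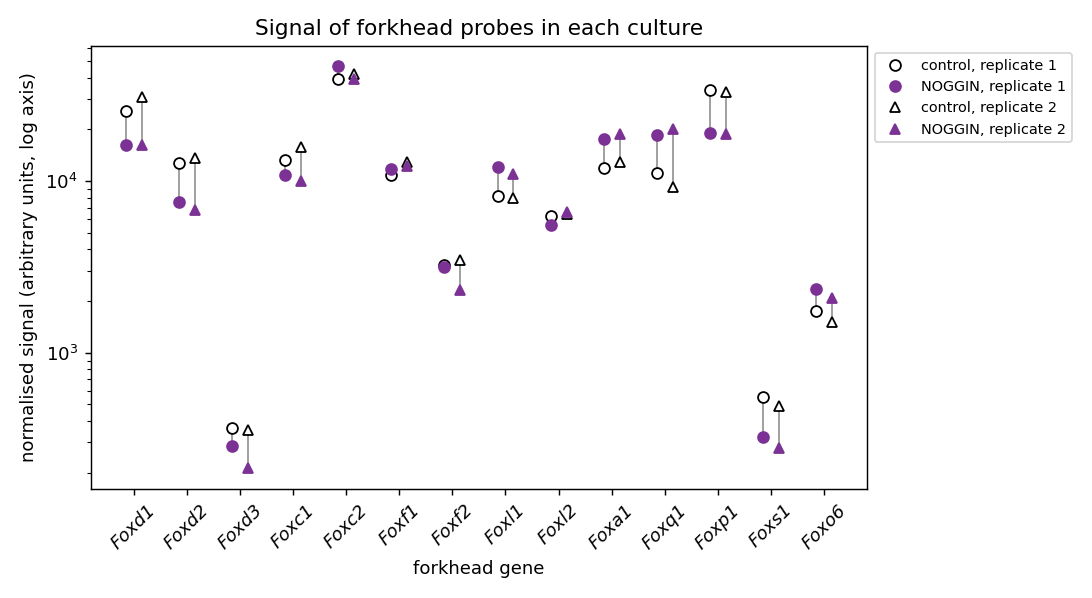
Normalised signal (arbitrary units, logarithmic vertical axis) of the probes of 14 forkhead genes (horizontal axis) in each culture, open for control and filled for NOGGIN, with circles for replicate 1 and triangles for replicate 2 and a line joining the cultures of an array. Heights of different genes cannot be compared, since each probe has its own brightness, but within a gene open and filled symbols keep their order on both arrays for all genes drawn except Foxc2, Foxf1 and Foxl2.

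The hedgehog pathway itself was followed through 19 genes, all of them tested. Of these, 3 were lower and 1 was higher, beside 4.04% and 3.95% of all genes, with a median log2 ratio of -0.085. Scube1, which belongs to a family that helps to release hedgehog ligands, was lower at -1.07 ± 0.066 and Ihh, a hedgehog ligand, was higher at 0.90 ± 0.10 (adjusted p = 0.0046 and 0.00686, limma). Gli2, a transcription factor of the pathway, and Ptch1, its receptor and target, were lower at -0.43 ± 0.052 and -0.43 ± 0.13 (adjusted p = 0.0324 and 0.044, limma). The probes of Ihh and Ptch1 were dim, with mean log2 signals of 8.64 and 8.09, so the normexp offset shrinks their ratios. The Ptch1 call was lost when the channels were modelled separately (adjusted p = 0.146), and the Gli2 call with the processed signals (adjusted p = 0.0623) and the deposited table (adjusted p = 0.0534). Gli1, the usual readout of pathway activity, had a log2 ratio of -0.37 ± 0.24 and did not pass (adjusted p = 0.113, limma).

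Foxa1 and Foxq1, both known from epithelia, were higher. The Foxa1 promoter window is shown because it alone among the forkhead promoter windows held the exact letters of the forkhead motif, TGTTTAC. That is 1 of 33 windows, of 28 genes, near the share of 3.17% among all promoter windows. The capitals mark the match, on the opposite strand, which starts 141 bases before the gene.
Foxa1, chr12:57546112-57546361, minus strand: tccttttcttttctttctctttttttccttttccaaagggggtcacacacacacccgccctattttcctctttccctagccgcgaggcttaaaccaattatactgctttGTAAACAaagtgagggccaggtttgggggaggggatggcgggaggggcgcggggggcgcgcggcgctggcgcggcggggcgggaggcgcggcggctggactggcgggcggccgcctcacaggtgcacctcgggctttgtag
A match is a description of the letters and does not show binding, and other windows may hold variants that were not searched. Foxa1, a pioneer factor of endoderm and urothelium, gave signals of 11965 in the control and 17465 in the NOGGIN culture of replicate 1, and of 12835 and 18898 in replicate 2. The NOGGIN cultures were the higher ones without overlap, and the arrays agreed closely. On the log2 scale the ratios were 0.55 and 0.56, with a mean of 0.55 ± 0.0089 or a 1.47-fold difference (adjusted p = 0.0174, limma).

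Foxq1, a factor of hair follicle and stomach epithelium, had the highest mean in the family. Its signals were 11214 in the control and 18595 in the NOGGIN culture of replicate 1, and 9221 and 20121 in replicate 2. The NOGGIN cultures lay well above both controls. This gave log2 ratios of 0.73 and 1.13, with a mean of 0.93 ± 0.28 or a 1.90-fold difference (adjusted p = 0.0145, limma). Foxa2, a pioneer factor of endoderm and floor plate, had a dim probe with signals of 214 and 200.2 in the control and NOGGIN culture of replicate 1, and of 319 and 159 in replicate 2. The control culture of replicate 2 stood above the others, and most of the difference came from that array. The log2 ratios came to -0.093 and -1.0, with a mean of -0.55 ± 0.64, so the spread between the arrays exceeded the difference (adjusted p = 0.212, limma). Its second probe, not bright enough for the test, gave -0.040 and -0.48, the same order of arrays. Beside these genes, 1 of 15 epithelial markers was higher and 1 lower, where 3.95% and 4.04% of all genes were. They were Upk2, a urothelial plaque protein, at 0.61 ± 0.23 and Cldn4, a tight junction protein, at -0.55 ± 0.22 (adjusted p = 0.0309 and 0.0384, limma). The Cldn4 call was lost with 3 settings besides median centring (adjusted p from 0.0525 to 0.0613), and the Upk2 call with the deposited table (adjusted p = 0.0512). The summed epithelial signal was 237800 and 259110 in control and 266670 and 262720 in NOGGIN cultures, and its part in the Foxa1 and Foxq1 values was not tested.

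All 3 FOXP genes tested had negative ratios on both arrays, and 1 of them passed, beside 7.99% of all genes. One of the start sites of Foxp1 is shown. Its window alone among the forkhead promoter windows held the exact letters of the GC-rich BMP-SMAD motif, TGGCGCC. That is 1 of 33 windows, near the share of 3.22% among all promoter windows. The capitals mark the match, on the opposite strand, 220 bases before the start.
Foxp1, chr6:99520994-99521243, minus strand: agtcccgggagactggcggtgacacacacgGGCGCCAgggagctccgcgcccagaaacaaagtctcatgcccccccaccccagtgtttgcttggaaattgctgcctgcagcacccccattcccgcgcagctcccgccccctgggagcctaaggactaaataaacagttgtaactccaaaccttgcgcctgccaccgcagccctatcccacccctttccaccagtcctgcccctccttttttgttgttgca
The windows at the other Foxp1 starts searched held none of the exact letters. Variant forms of the motifs were not searched, so forkhead windows may hold them. Foxp1, a repressor in heart, lung and lymphocytes, gave signals of 33979 in the control and 19095 in the NOGGIN culture of replicate 1, and of 33189 and 18852 in replicate 2. The conditions were far apart and the arrays nearly alike. The log2 ratios were -0.83 and -0.82, with a mean of -0.82 ± 0.011 or a 1.77-fold difference (adjusted p = 0.00683, limma). The other Foxp1 probes gave -0.77 ± 0.012 and -0.61 ± 0.29, the last with the dimmest signals and -0.82 against -0.41 between the arrays. Foxp4, of lung and gut, had 3 probes that agreed, at -0.32, -0.33 and -0.32, and did not pass (-0.32 ± 0.12, adjusted p = 0.0908, limma). Foxp2, known from the nervous system and lung, had log2 ratios of -0.25 and -0.25 (adjusted p = 0.119, limma), and its second probe gave -0.13 ± 0.097.

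Foxs1, a gene of pericytes and sensory neurons, was lower with signals of 552 in the control and 324 in the NOGGIN culture of replicate 1, and of 492 and 278 in replicate 2. Both NOGGIN cultures lay below both controls. On the log2 scale the ratios were -0.77 and -0.82, with a mean of -0.80 ± 0.038 or a 1.74-fold difference (adjusted p = 0.00759, limma). The normexp offset of 50 shrinks the ratio of such a dim probe, and Foxs1 reached -0.99 with the processed signals of the scanner software. Pericytes share contractile genes with smooth muscle, but no list of pericyte markers was followed. Of 11 smooth muscle markers tested, 7 were lower and 0 were higher, beside 4.04% and 3.95% of all genes. Their median was -0.91, and Ckm was not above background. Acta2, an actin of smooth muscle, Tagln, which binds actin, and Synpo2, an actin-associated protein, were lower at -1.16 ± 0.23, -1.09 ± 0.14 and -1.05 ± 0.47 (adjusted p = 0.00693, 0.00558 and 0.0259, limma). Myocd, a master regulator of smooth muscle genes, did not pass at 0.15 ± 0.038 (adjusted p = 0.294, limma). Its probe was dim as well, with a mean log2 signal of 7.42, so the offset shrinks its ratio too. The summed smooth muscle signal was 544680 and 535200 in control and 273500 and 284600 in NOGGIN cultures, and its part in the Foxs1 value was not tested.

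Foxo1 and Foxo3 are kept out of the nucleus by insulin and growth factor signalling. Of the FOXO genes, 1 of 3 tested passed, beside 7.99% of all genes. Foxo6, best known from the brain, gave signals of 1756 in the control and 2335 in the NOGGIN culture of replicate 1, and of 1508 and 2089 in replicate 2. The NOGGIN cultures were higher without overlap. This gave log2 ratios of 0.41 and 0.47, with a mean of 0.44 ± 0.042 or a 1.36-fold difference (adjusted p = 0.0307, limma). The call was lost in the deposited table (adjusted p = 0.0681) and with separate channels (adjusted p = 0.051). A second Foxo6 probe, not bright enough for the test, gave smaller log2 ratios of 0.21 and 0.14. Foxo1 had a mean of -0.00074 ± 0.12 and Foxo3 of -0.13 ± 0.17 (adjusted p = 0.998 and 0.463, limma), and the sign of Foxo1 turned with the mean of its probes (0.018) and in the deposited table (0.0074). Of 21 genes linked to FOXO factors as targets, 5 were lower and 2 were higher, beside 4.04% and 3.95% of all genes. Their median was -0.046. Fbxo32, a ubiquitin ligase of muscle wasting, Gadd45a, of the stress response, and Irs2, an adaptor of the insulin receptor, were lower at -1.08 ± 0.28, -1.03 ± 0.17 and -0.99 ± 0.13 (adjusted p = 0.0103, 0.0067 and 0.00624, limma). Pdk4, which restrains glucose oxidation, was higher at 0.65 ± 0.11 (adjusted p = 0.0144, limma).

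Foxm1, a driver of mitotic genes, had log2 ratios of 0.10 and 0.063 and did not pass (0.081 ± 0.026, adjusted p = 0.574, limma), and its second probe gave 0.10 ± 0.045. Of 19 mitosis genes linked to FOXM1, 7 were higher and 0 were lower, beside 3.95% and 4.04% of all genes. Their median was 0.34, and 15 had an unadjusted p under 0.05, beside 23.2% of all genes tested. Mki67, a proliferation antigen, was higher at 0.51 ± 0.030, Ccnb1, a mitotic cyclin, at 0.47 ± 0.028, and Bub1b and Bub1, kinases of the spindle checkpoint, at 0.46 ± 0.068 and 0.44 ± 0.024 (adjusted p = 0.0208, 0.0264, 0.0299 and 0.0296, limma). The count of 7 dropped to 3 with the processed signals, which lost Bub1 (adjusted p = 0.0555), and to 2 with the deposited table, which lost Bub1 and Bub1b (adjusted p = 0.065 and 0.0581). Foxj1, the master regulator of motile cilia, gave signals of 172 and 165 in the control and 155 and 162 in the NOGGIN cultures. The conditions did not overlap but lay close together, with a log2 ratio of -0.089 ± 0.086 (adjusted p = 0.563, limma). Of 24 genes of motile cilia, 14 were tested and 7 were not above background. Limma called 0 of the 14, with an unadjusted p under 0.05 for 1 (23.2% of all genes) and a median of 0.028, and the count was 0 with separate channels as well.

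**Figure D4:**
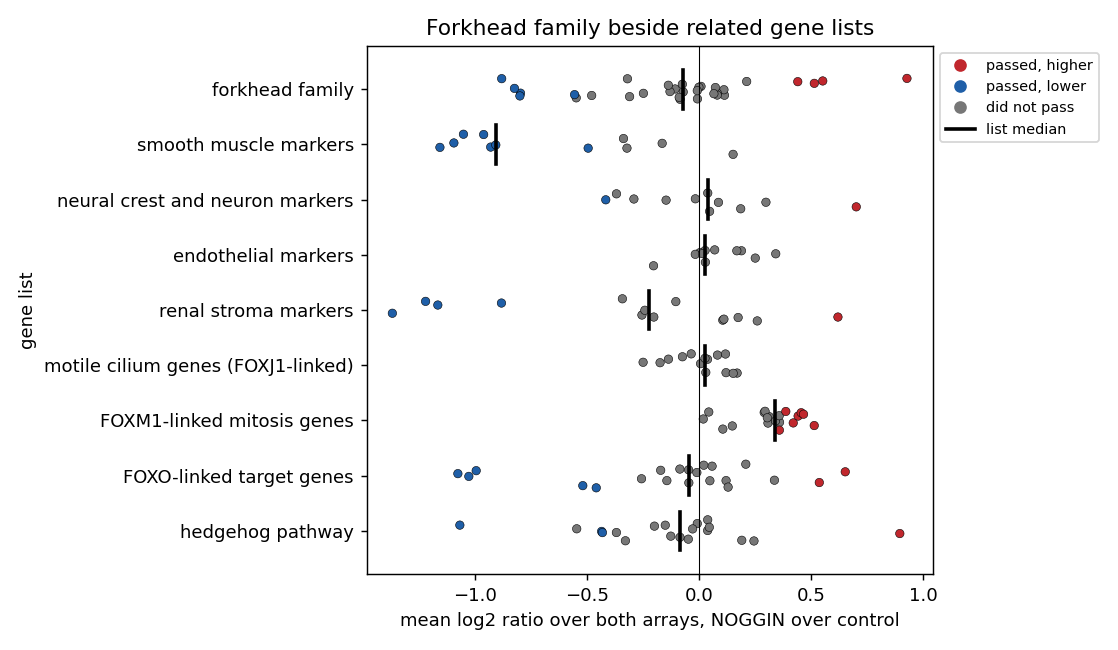
Mean log2 ratio over both arrays (horizontal axis) of the genes of the forkhead family and of 8 related gene lists (vertical axis), coloured by the outcome of the test, with a bar for the median of each list. Points are shifted vertically at random for legibility, and the forkhead median of -0.073 lies between the mitosis list at 0.34 and the smooth muscle list at -0.91.

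The remaining members that were tested did not pass. Foxe1, of the thyroid, had log2 ratios of 0.17 and 0.26 and a mean of 0.21 ± 0.063 (adjusted p = 0.175, limma). Foxn2 had a mean of 0.11 ± 0.089, Foxi1, of proton-secreting cells in kidney and inner ear, 0.11 ± 0.19, and Foxj3 0.081 ± 0.19. Foxk1 had 0.066 ± 0.23 and Foxk2 -0.085 ± 0.12, both being factors linked to glucose metabolism. Foxi3, of ectodermal placodes, had -0.0079 ± 0.11, and turned to 0.011 with median centring and to 0.032 in the deposited table. Foxh1, a partner of SMAD proteins in Nodal signalling, had -0.071 ± 0.072 and was not well above background in 1 of its 4 channels. Foxn3, linked to the cell cycle checkpoint, had -0.11 ± 0.050, and Foxj2 -0.14 ± 0.23. These 10 genes had adjusted p-values between 0.175 and 0.973 (limma), and for Foxi1, Foxi3, Foxj2, Foxj3, Foxk1 and Foxk2 the sign differed between the arrays.

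Of the 44 members, 12 were too dim for the test. Among them are Foxa3, Foxb1, Foxb2, Foxe3, Foxi2, Foxn1, Foxn4, Foxo4, Foxp3, Foxr1 and Foxr2. They include factors known from other tissues, such as Foxn1 of the thymus epithelium, Foxe3 of the lens and Foxp3 of regulatory T cells. For Foxb1, Foxb2, Foxn1, Foxn4 and Foxr2, 0 spots were well above background in any channel. For Foxa3 and Foxp3, 100% of the spots were well above background in the green channel of both arrays, which held NOGGIN on replicate 1 and control on replicate 2, and fewer were in the red channel.

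Forkhead genes lie close together in 3 places of the mouse genome, with at most 1 other gene between them in the RefSeq gene table, and 8 members belong to these clusters. On chromosome 13, Foxq1, Foxf2 and Foxc1 follow each other. Foxq1 was higher on both arrays (0.73 and 1.13), while Foxf2 (-0.042 and -0.58) and Foxc1 (-0.30 and -0.66) had negative values and did not pass. On chromosome 8 the order is Foxf1, Mthfsd, Foxc2 and Foxl1. Foxl1 was higher (0.56 and 0.47), and Foxf1, Mthfsd (-0.087 ± 0.096) and Foxc2 did not pass. On chromosome 4, Foxd2 was lower beside Foxe3, which was too dim. Members of a cluster thus did not share 1 outcome, and whether neighbours differ from each other was not tested.

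**Figure D5:**
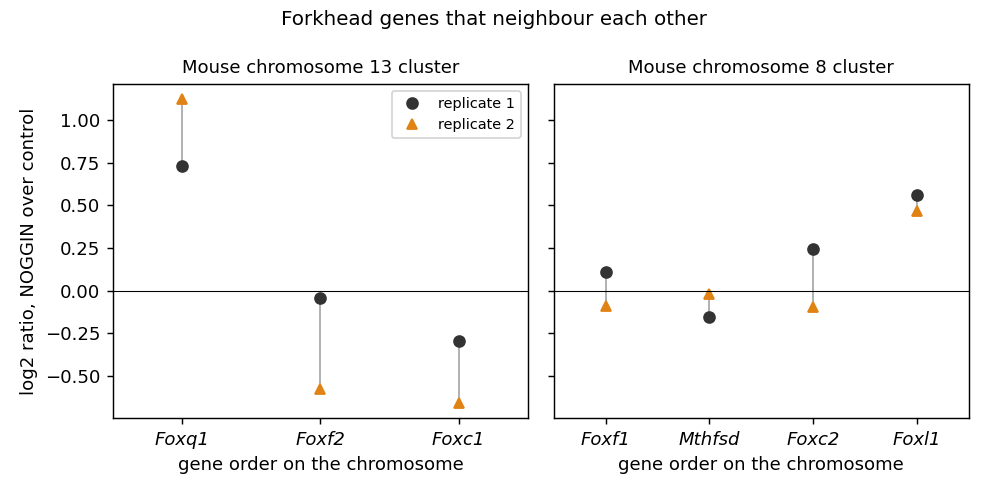
Log2 ratio on each array (vertical axis, circles for replicate 1 and triangles for replicate 2) of neighbouring genes in their order along mouse chromosomes 13 and 8 (horizontal axis, not to distance). In each cluster 1 gene, Foxq1 or Foxl1, lies above 0 on both arrays, and the others lie below 0 on at least 1 array.

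Other cell types that whole ureters could hold were followed through marker lists. Of 13 markers of ureteric mesenchyme, 5 were higher and 1 was lower, beside 3.95% and 4.04% of all genes. Their median was 0.050. Sox9 and Tbx18, transcription factors of early ureteric mesenchyme, were higher at 2.22 ± 0.13 and 1.25 ± 0.27, and Bmp4, the BMP ligand of that tissue, was lower at -1.30 ± 0.25 (adjusted p = 0.00331, 0.00693 and 0.00607, limma). The summed signal of the 13 markers was 852800 and 866320 in control and 727230 and 768040 in NOGGIN cultures. Bmp4, Col1a1 and Vim have the brightest probes of this list and weigh most in its sum. Of 12 nephron markers, 2 were lower, beside 4.04% of all genes. They were Wt1 and Lhx1, transcription factors of nephron progenitors, at -0.81 ± 0.39 and -0.75 ± 0.19 (adjusted p = 0.0351 and 0.0154, limma). The Wt1 call was lost with the deposited table (adjusted p = 0.0571, limma). The summed nephron signal was 63398 and 61320 in control and 62220 and 63332 in NOGGIN cultures. Limma called 0 of 11 endothelial markers (unadjusted p under 0.05 for 2, median 0.028) and 0 of 12 markers of macrophages and blood (4, median -0.11), where 23.2% of all genes had such a p, and both counts were 0 with separate channels too. Erg, an endothelial transcription factor, was not above background. The part of these cell types in the forkhead values was not tested.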

How the data were processed

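Both 2-colour arrays were scanned and quantified by Agilent Feature Extraction (version 10.7.3.1 per the submitters' processing notes). Linear spot intensities per channel are what the deposited scanner files give, together with a log10 ratio per spot, which the software computed per the file headers and which was only checked here. The authors' deposited table holds a signed fold change per probe and array, treated as a score, since ratios under 1 are written as negative reciprocals. RNA (200 ng per culture) was amplified in 1 round and labelled with Alexa Fluor dyes, per the labels' protocols. Per the file headers both arrays share 1 slide and 1 scan.

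Background was corrected with normexp (offset 50) and each array was normalised by loess, with control and outlier spots (3.69%) at weight 0. Probes come in 4 spots, which were averaged. A probe was kept if, in at least 1 condition, more than a share of 0.5 of spots exceeded background well on each array, and the brightest kept probe stood for its gene. Symbols came from a RefSeq table (GRCm38.p6) for 28328 of 39429 probes; no probe positions are given. Log2 ratios of the arrays were tested against 0 with lmFit and eBayes (limma 3.58.1, R 4.3.3, two-sided, Benjamini-Hochberg over 21316 genes), on 1 residual and 4.13 prior degrees of freedom. An exact sign-flip test of 2 arrays cannot go below p = 0.5. The steps were tested on simulated data, in which the share of false calls exceeded the nominal one.

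Promoter windows of 250 bases were found for 28 of the 44 members. Members and lists were chosen with earlier results of these data known. Named are the members, up to 4 called genes with the largest mean of each pathway list and up to 3 of each marker list, and Ptch1, Gli1, Bmp4, Myocd and Acta2 in any case; a few items are not reported here. The alternatives were other background corrections, normalisations, filters, spot and probe summaries, other thresholds, variants of the limma model, the deposited table and single arrays.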

Additional observations from a re-analysis of the deposited data

How the results depend on the processing

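Median centring in place of loess ended every call: 0 of all genes, 0 forkhead members, and 0 genes of the hedgehog, FOXM1-linked, FOXO-linked, renal stroma, ureteric mesenchyme, smooth muscle, epithelium, neural crest and nephron lists were called, although the median of all genes moved by only 0.039; the cause was not tested. Under the other alternatives with a test, 7 to 10 members were called at the same threshold and 11 at an adjusted p of 0.1, and all genes called numbered 1366 to 2002 at the same threshold. Each array pairs 1 control with 1 NOGGIN culture; the separate-channel model without the pairing (no replicate block beyond the spot correlation) called 7 members. The median of the family was -0.0076 with all probes kept, where 12 dim genes join, and -0.094 to -0.012 on a single array. The count past 1.5-fold was 5 to 8 on a single array, which has no test, and 0 at 2-fold. Median centring turned the sign of Foxc2 (-0.022), Foxd4 (0.0088), Foxf1 (-0.057) and Foxi3 (0.011), the mean of probes that of Foxf1 (-0.060) and Foxo1 (0.018), and the deposited table, oriented by the dyes, that of Foxd4 (0.15), Foxi3 (0.032) and Foxo1 (0.0074); none of these genes was called. The FOXM1-linked count was 3 with the processed signals and 2 with the deposited table. The epithelium count was 1 with the processed signals and with the mean of probes, and 0 with the deposited table. The neural crest count was 1 with an offset of 0, the processed signals, the deposited table and separate channels, and the nephron count was 1 with the deposited table. The alternatives for the lists and the other named genes were added after seeing the data. Dim probes, such as those of Foxd3, Foxd4, Foxs1, Foxa2, Foxj1, Ihh, Ptch1, Pdk4 and Lhx1, lie near background, where the offset shrinks ratios.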

Other observations

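Among genes next to forkhead members, chosen after their values were seen, the non-coding Foxd2os beside Foxd2 on chromosome 4 was lower as well. Its log2 ratios were -0.94 and -1.11, with a mean of -1.03 ± 0.12 (adjusted p = 0.00579, limma), while those of Foxd2 were -0.75 and -1.01. The protein-coding gene before Foxd2 in the gene table, Trabd2b, which encodes a metalloprotease, was higher at 0.92 (adjusted p = 0.0067, limma), so these neighbours of Foxd2 passed the test in different directions. Fendrr, the non-coding RNA that lies next to Foxf1 and is known from lateral mesoderm, had log2 ratios of 0.38 and -0.080 and did not pass (0.15 ± 0.32, adjusted p = 0.548, limma), like Foxf1 itself.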
